A study of Mus musculus with 6 samples.

Results

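Exosomes are small vesicles shed by cells into body fluids such as serum, and 4 of the microRNAs (miRNAs) measured in them here are known chiefly from blood cells. These are miR-144 of the red-cell line, miR-146a of lymphocytes and activated myeloid cells, miR-150 of lymphocytes, and miR-223 of myeloid cells. They were taken by name from a mouse quantitative PCR panel of 380 named miRNAs, of which 123, including all 4, gave a threshold cycle (Ct) in every sample. The Ct is the cycle at which the fluorescence of a well crosses a threshold, so an earlier Ct means more template, and 1 cycle is about 1 doubling. Vehicle was given to the mice of 3 samples and OCExoInhib, a name the labels do not spell out, to those of the other 3. All mice were 2 weeks past ACLT, read here as surgical cutting of the anterior cruciate ligament, and no group without this injury was part of the comparison. The sources used here do not give strain, age or sex. In its design part the submission speaks of pooling equal amounts of exosomal miRNA from 3 mice a group and leaves unsaid whether the 3 samples of a group are mice or runs of a pool, so p-values cover only the spread between the samples as run, which may be technical.

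A miRNA guides the Argonaute protein to messenger RNAs that match its seed, bases 2 to 8, and lowers their output. miR-144 is made from a red-cell cluster together with miR-451 and takes part in red-cell maturation. miR-146a is induced by NF-kB and restrains the signalling proteins Irak1 and Traf6, miR-150 restrains the transcription factor Myb in lymphocyte development, and miR-223 restrains Mef2c in granulocyte precursors. The RNA here is from serum exosomes, so a level gives neither the number of cells of a type nor their RNA content.

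The mature sequences of the 4, as the deposited panel annotation gives them, are shown with the seed in capitals because no 2 of them share it.
miR-144: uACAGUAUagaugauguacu
miR-146a: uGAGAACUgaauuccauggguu
miR-150: uCUCCCAAcccuuguaccagug
miR-223: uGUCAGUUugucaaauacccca
For miR-144, miR-146a and miR-223 the annotation's sequence was identical to a RefSeq mature miRNA (GRCm38.p6), miR-144-3p, miR-146a-5p and miR-223-3p. On this build RefSeq places the Mir144 gene at chr11:78073005-78073070 on the plus strand and the Mir146 gene of miR-146a at chr11:43374397-43374461 on the minus strand. The Mir150 gene lies at chr7:45121757-45121821. The Mir223 gene lies at chrX:96242817-96242926 on the plus strand, within the span of the long noncoding RNA gene F630028O10Rik. None of the other 3 overlapped another RefSeq gene.

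The nearest relatives of miR-144, miR-146a and miR-150 on the panel gave no Ct in any sample, and no panel miRNA shared bases 2 to 7 with miR-223. miR-146b is the only panel miRNA with the whole seed of a member, that of miR-146a, and is shown with miR-451, the cluster partner of miR-144.
miR-146b: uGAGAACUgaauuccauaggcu
miR-451: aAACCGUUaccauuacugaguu
Counted from the 5′ end, miR-146b differs from miR-146a by G18A and U21C, and it had no Ct while miR-146a was measured in every sample. Between the end of Mir144 and the start of the Mir451a gene on the same strand lie 99 bases. miR-451 had no Ct while miR-144 was measured in every sample. miR-101a and miR-101b, which share bases 2 to 7 with miR-144, and miR-532-3p, which shares them with miR-150, had no Ct either. The rule by which a well was left without a Ct is not given in the sources used here, so these entries show only that no Ct was listed.

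miR-144 was measured at Ct 27.442, 25.698 and 27.458 in vehicle samples 1, 2 and 3 and at 25.728, 28.175 and 26.199 in OCExoInhib samples 1, 2 and 3. The groups overlapped: vehicle 2 was the earliest of all and OCExoInhib 2 the latest. The means were Ct 26.9 ± 1.01 with vehicle and 26.7 ± 1.30 with OCExoInhib (SD, n = 3 each).

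miR-146a was measured at Ct 27.238, 30.209 and 26.130 in vehicle and at 26.072, 28.788 and 29.537 in OCExoInhib samples. It varied widely within both groups, by 4.08 cycles among vehicle and 3.46 among OCExoInhib samples. Vehicle 2 and OCExoInhib 3 were the late samples of their groups, and the earliest values of the groups, vehicle 3 and OCExoInhib 1, were nearly equal. The vehicle mean was Ct 27.9 ± 2.11 and the OCExoInhib mean 28.1 ± 1.82 (SD, n = 3 each).

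miR-150 was measured at Ct 28.721, 27.109 and 27.334 in vehicle and at 26.346, 27.268 and 26.062 in OCExoInhib samples. OCExoInhib 1 and 3 were earlier than every vehicle sample, and OCExoInhib 2 fell between vehicle 2 and vehicle 3, so the groups overlapped. Mean Ct was 27.7 ± 0.873 with vehicle and 26.6 ± 0.630 with OCExoInhib (SD, n = 3 each).

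miR-223 was measured at Ct 36.085, 36.108 and 37.161 in vehicle and at 36.304, 36.131 and 36.832 in OCExoInhib samples. All 6 values were later than Ct 35, where a reading rests on few template molecules, and the groups overlapped. The other 3 members had 0 values at Ct 35 or later. Only 5 of the 123 measured miRNAs had all 6 values at 35 or later, miR-223 with miR-7b, miR-20a, miR-215 and miR-219. The mean for miR-223 was Ct 36.5 ± 0.615 with vehicle and 36.4 ± 0.365 with OCExoInhib (SD, n = 3 each).

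**Figure D1:**
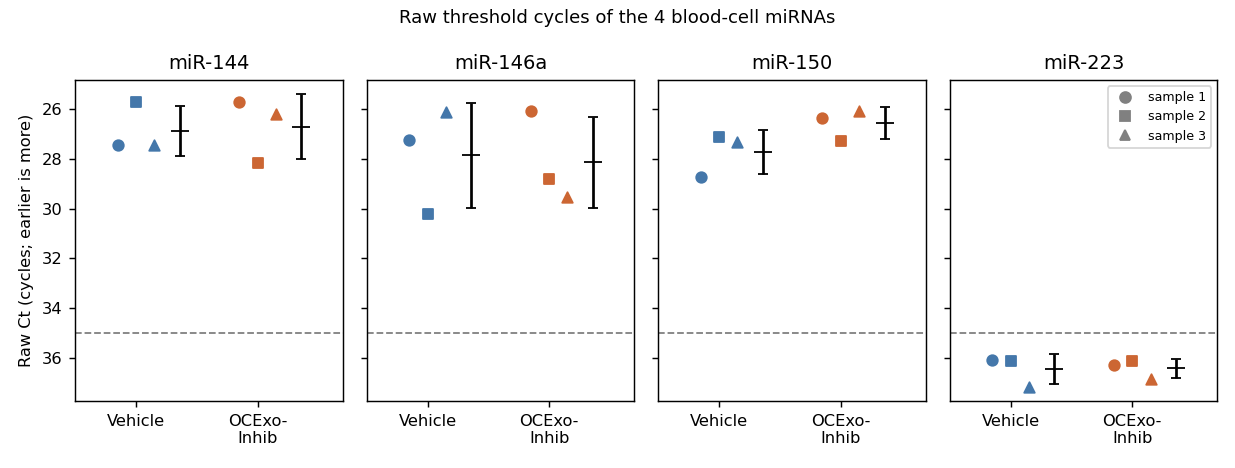
Raw Ct in cycles, with earlier cycles at the top, for the 4 miRNAs in 3 vehicle (blue) and 3 OCExoInhib (orange) samples; black marks are means with SD, and the dashed line is Ct 35. The groups overlap for every miRNA, miR-146a has the widest spread, and all 6 values of miR-223 lie past Ct 35.

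The deposited normalized values subtract from each raw Ct the average over wells P21 to P23, and their negative is used here as the log2 level. In vehicle samples miR-144 had the highest mean log2 level of the 4, 4.05 ± 0.72, followed by miR-150 at 3.20 ± 0.83, miR-146a at 3.06 ± 2.43 and miR-223 at −5.53 ± 0.44 (SD, n = 3 each). In OCExoInhib samples the order was miR-150 at 3.63 ± 0.33, miR-144 at 3.49 ± 1.09, miR-146a at 2.06 ± 2.12 and miR-223 at −6.23 ± 0.90 (SD, n = 3 each). The first 3 did not differ beyond their spread in either group. miR-223 stood apart from them, with a Ct at least 5.90 cycles later than that of any other member in the same sample. Each miRNA has its own assay, of an efficiency that the sources used here do not state, so the order of levels between miRNAs is only approximate.

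Groups were compared with limma over the 115 miRNAs that came up before Ct 35 in 3 samples or more, with Benjamini-Hochberg adjustment and a threshold of 0.05. This filter kept miR-144, miR-146a and miR-150 and left out miR-223. None of the 3 tested members passed, 0 of 3, where 23.5% of all tested miRNAs did, 17.4% lower and 6.09% higher in OCExoInhib samples. In OCExoInhib samples every miRNA that passed, except miR-107 (−2.31), had a mean log2 level between −0.856 (miR-194) and 0.867 (miR-140). These levels lie near 0, the level of wells P21 to P23. In vehicle samples the miRNAs that passed ran from −6.02 (miR-501-3p) to 7.15 (miR-30d). The cause of this pattern was not tested. Without the miRNAs that carry a Ct difference between 2 samples shared by 5 or more miRNAs, as 0 of the 4 members do, 5 of 92 passed (5.43%), 1 lower and 4 higher, an exclusion chosen after seeing the data. Unadjusted p was under 0.05 for 0 of the 3 by limma, and the unmoderated equal-variance test also called 0. The log2 levels of the groups overlapped for all 4 members, while they did not overlap for 26.1% of the tested miRNAs.

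The log2 difference of miR-144, OCExoInhib minus vehicle, was −0.56 (SE 0.82, 95% interval −2.30 to 1.18, limma adjusted p 0.866). That interval runs from 4.92-fold lower to 2.27-fold higher in OCExoInhib samples. For miR-146a the log2 difference was −0.998 (SE 1.19, interval −3.53 to 1.54, adjusted p 0.866), an interval from 11.6-fold lower to 2.90-fold higher. For miR-150 it was 0.44 (SE 0.77, interval −1.20 to 2.07, adjusted p 0.866), from 2.29-fold lower to 4.21-fold higher. These SEs and intervals draw in part on the spread of all tested miRNAs. By the unmoderated test the SE of miR-146a was larger, 1.86, and those of miR-144 (0.75) and miR-150 (0.51) were smaller. The intervals of all 3 include no difference and changes of over 2-fold in each direction, so the data do not show that the groups are alike. The log2 difference of miR-223 was −0.70, with an adjusted p of 0.852 by limma when no filter was applied. The authors' deposited table gives ratios of vehicle over OCExoInhib of 1.474 for miR-144, 1.997 for miR-146a, 0.738 for miR-150 and 1.62 for miR-223, without an error.

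The difference of miR-146a was the lowest of the 88 miRNAs that did not pass, and its spread was also among the largest. Its SD within groups was 2.28 cycles, the 4th largest of the 115 tested, against a median of 0.964. That of miR-144 was 0.920 and that of miR-150 0.629, the 95th largest. The value for miR-146a rested on single samples: the log2 difference was −2.35 without vehicle 2 (adjusted p 0.113), −2.11 without OCExoInhib 1 (0.442), 0.0035 without vehicle 3 (0.998) and 0 without OCExoInhib 3. Without vehicle 2, limma gave miR-144, miR-146a and miR-150 the same SE, 1.06, so the 0.113 does not carry the wider spread of miR-146a.

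**Figure D2:**
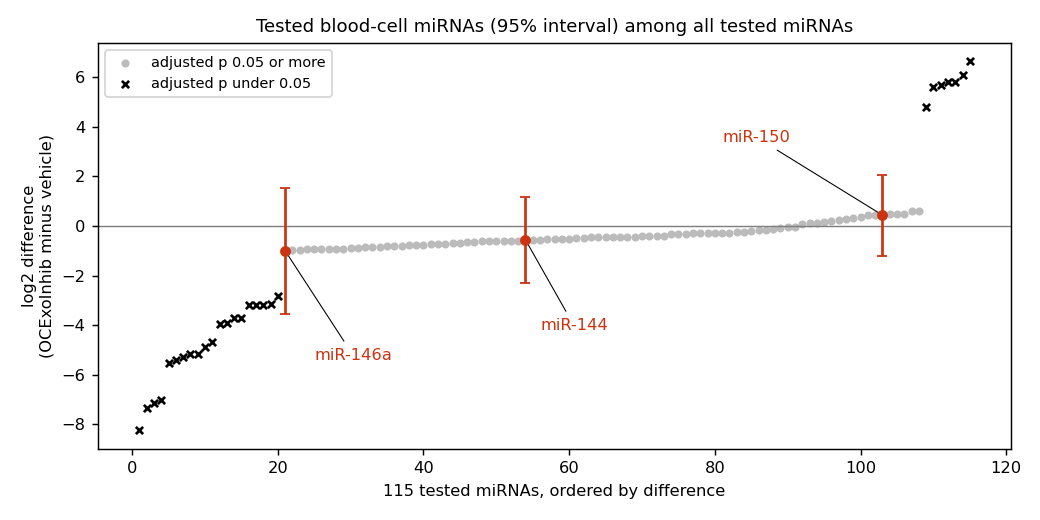
Log2 differences, OCExoInhib minus vehicle, of the 115 tested miRNAs in order of size; crosses passed the adjusted threshold and dots did not, and the red points with bars are the 3 tested members with 95% intervals. The members lie among the miRNAs that did not pass, miR-146a at their lower end (−0.998) and miR-150 near their upper end (0.44).

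The sign of these differences depended on how samples were centred. Wells P21 to P23 averaged Ct 30.9 ± 0.318 with vehicle and 30.2 ± 0.531 with OCExoInhib (SD, n = 3 each), a difference of −0.725 cycles (exact two-sided permutation p 0.2, with 0.1 the smallest possible). On raw Ct, with no normalization, the log2 difference was 0.17 for miR-144, −0.27 for miR-146a, 1.16 for miR-150 and 0.029 for miR-223. Centring on the global mean gave 0.62, 0.18, 1.62 and 0.48 in the same order, and centring on the sample medians 1.97, 1.53, 2.96 and 1.83. The median over all 115 tested miRNAs moved with these settings, from −0.54 with the wells to 0.18, 0.64 and 1.98.

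Relative to that median, which such centring moves by the same amount as each member, miR-144 stood at −0.018, miR-223 at −0.15, miR-146a at −0.46 and miR-150 at 0.98. miR-150 was the only member above it: 12 of the 115 tested miRNAs had a higher difference and 102 a lower one. It was above 0 in all 5 normalizations tried besides the wells, with adjusted p of 0.154 for the global mean, 0.0663 for quantile normalization, 0.526 for raw Ct, 0.552 for median of ratios and 0.0105 for sample medians. The last passed the threshold, as did miR-144 at 0.0487, in a setting that called 57 of the 115 miRNAs higher and 11 lower. On the wells, miR-150 was at −0.024 without vehicle 1, its lowest sample.

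**Figure D3:**
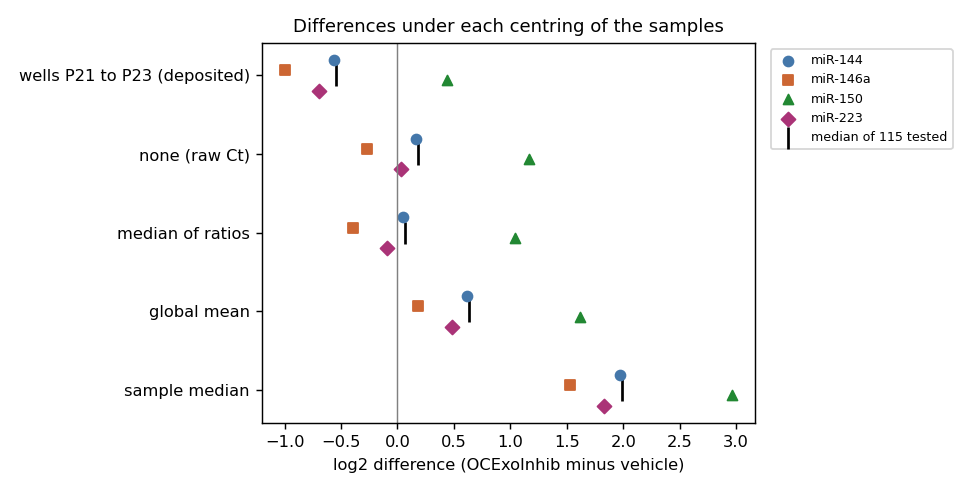
Log2 differences, OCExoInhib minus vehicle, of the 4 miRNAs under 5 ways of centring the samples; the black bars are the median of the 115 tested miRNAs. Every point shifts with the bar, miR-144 stays at −0.018 from it and miR-150 at 0.98 above it.

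Ranks within a sample need no normalizer. Counted from the earliest Ct among the 123 measured miRNAs, miR-150 ranked 70, 65 and 56 in vehicle samples 1, 2 and 3 and 46, 44 and 40 in OCExoInhib samples 1, 2 and 3. It ranked earlier in all 3 OCExoInhib samples, with no overlap, as did 11.3% of the tested miRNAs, and it was the only one of the 4 members to do so. Of the 13 tested miRNAs with this pattern, 7 were called higher by limma and 6, including miR-150, were not called. The number called higher by limma was 0 where a Ct under 35 was required in all samples. By mean Ct, 19 miRNAs lay ahead of miR-150 in vehicle and behind it in OCExoInhib samples, and 15 of these were miRNAs that limma called changed. Among the 96 measured miRNAs that limma did not call, a set chosen from these same values, miR-150 ranked 53, 50 and 42 in vehicle and 46, 44 and 40 in OCExoInhib samples, and the groups overlapped.

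The ranks of the other members overlapped between groups. miR-144 ranked 51, 41 and 58 in vehicle and 37, 49 and 42 in OCExoInhib samples. miR-146a ranged from 36 to 82 in vehicle and from 43 to 71 in OCExoInhib samples, the widest range of the 4. miR-223 ranked between 116 and 120 in vehicle and between 116 and 122 in OCExoInhib samples, near the last place in each.

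**Figure D4:**
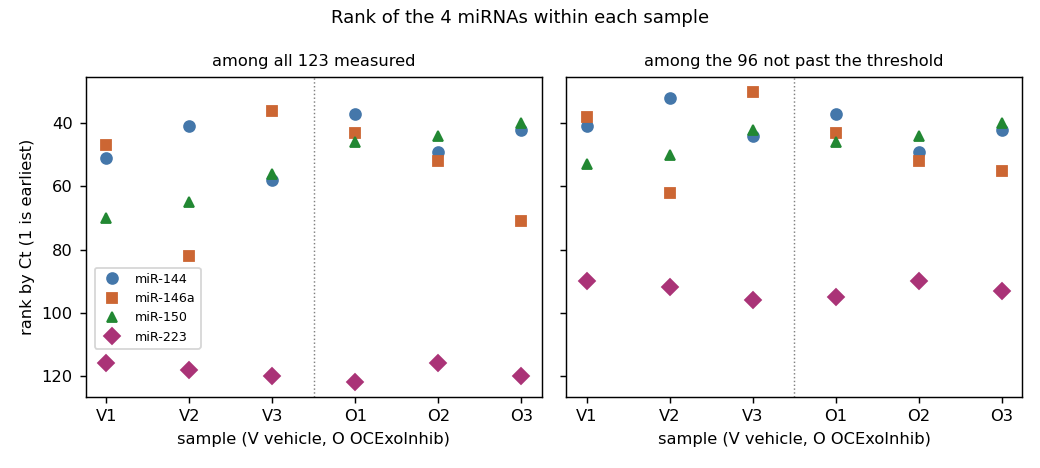
Rank by Ct within each sample (1 is the earliest, at the top) for the 4 miRNAs, among all 123 measured miRNAs on the left and among the 96 not past the threshold on the right. On the left miR-150 moves from 56 to 70 in vehicle (V) to 40 to 46 in OCExoInhib (O) samples; on the right its ranks overlap between groups.

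Differences between 2 members within a sample are also free of the normalizer, and the groups overlapped for all 6 pairs. The largest shift was that of miR-146a against miR-150: miR-146a was later by 0.138 ± 2.57 cycles with vehicle and by 1.57 ± 1.88 with OCExoInhib (SD, n = 3 each). For miR-144 against miR-150 the difference was −0.855 ± 0.851 with vehicle and 0.142 ± 0.763 with OCExoInhib (SD, n = 3 each), a shift of 0.997 cycles towards less miR-144 relative to miR-150. These shifts are descriptions and were not tested.

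No close correlation between members was seen over the 6 samples, which are too few to exclude one. Pearson's r of their log2 levels ran from −0.51, for miR-150 and miR-223, to 0.38, for miR-146a and miR-223, as a description over 6 samples that share the wells used for normalization. All values of miR-223, which is in both of these pairs, were later than Ct 35. Among the 115 tested miRNAs the 2 most like miR-146a were miR-205 (r 0.90, root mean square difference of centred levels 0.85) and miR-221 (r 0.88, 1.35). miR-205 was lowest in vehicle 2 and OCExoInhib 3 of the groups, the late samples of miR-146a. Those most like miR-144 were miR-200b (r 0.87, 0.40) and miR-182 (r 0.83, 0.49), those most like miR-150 were miR-206 (r 0.81, 0.59) and miR-128 (r 0.81, 0.38), and those most like miR-223 were miR-92b (r 0.91, 0.40) and miR-30b (r 0.91, 0.37). None of these 8 passed the limma threshold. With 114 or more miRNAs to choose from and 6 samples, such values are found by search and carry no test.

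Some miRNAs of this panel share an identical Ct difference between 2 samples of a group. Of the 123 measured, 23 carried a difference shared, within 0.0015 cycles, by 5 or more miRNAs. Of the 4 members 0 carried one.

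Other blood-cell miRNAs were measured in part, on a panel where 123 of 380 named miRNAs (32.4%) had a Ct and 257 had none. The counts that passed in each list stand against 17.4% of all tested miRNAs called lower and 6.09% called higher. A Ct was given for 6 of 10 red-cell, 5 of 9 platelet, 4 of 9 lymphocyte and 4 of 7 myeloid miRNAs on the panel. Of the 10 red-cell miRNAs 6 were tested: miR-16, 42.4-fold lower in OCExoInhib samples (log2 difference −5.41, SE 0.88, limma adjusted p 0.000193), and miR-15a, 26.0-fold lower (−4.70, SE 0.95, 0.00108), fell, and miR-144, miR-92a, miR-210 and miR-96 did not pass. miR-16 and miR-15a are made in most tissues and restrain Bcl2 and cell-cycle genes, and both carried one of these repeated Ct differences. Their mean log2 levels in OCExoInhib samples, −0.092 and −0.495, were near 0, the level of wells P21 to P23. miR-451 and miR-486, which are more particular to red cells, and miR-25 and miR-363 had no Ct. The median log2 difference of the 6 was −0.75, against −0.54 for all tested miRNAs.

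Of 9 lymphocyte miRNAs 3 were tested, miR-150, miR-146a and miR-29a, and 0 passed by limma, also without adjustment (median −0.97). miR-155, miR-181a, miR-181b, miR-342-3p and miR-17 had no Ct, and miR-20a was late in all samples. Of 7 myeloid miRNAs on the panel, miR-21 fell by 4.87 on the log2 scale (SE 0.80, limma adjusted p 0.000193), miR-146a and miR-10a did not pass, miR-223 was late, and miR-142-3p, miR-142-5p and miR-155, marks of white blood cells, had no Ct (median of 3 tested −0.998). miR-21 is made in many cell types and carried a repeated Ct difference. Its mean log2 level in OCExoInhib samples, −0.071, was also near that of wells P21 to P23. Of 9 platelet miRNAs miR-21 fell, miR-191, miR-26a and miR-199a-3p did not pass, miR-223 was late and 4 had no Ct (median of 4 tested −0.88). Of 6 miRNAs induced by NF-kB, miR-146a and miR-132 did not pass, miR-21 fell and miR-146b, miR-155 and miR-9 had no Ct (median of 3 tested −0.998).

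Among markers of other sources of serum RNA, miR-194 of liver and gut fell by 5.27 on the log2 scale (SE 0.93, limma adjusted p 0.000296) and miR-133a of muscle by 2.82 (SE 0.84, 0.0184), while miR-192 and miR-206 did not pass. miR-194 and miR-133a both carried a repeated Ct difference, and their mean log2 levels in OCExoInhib samples were −0.856 and −0.412. miR-122 of liver, miR-1 and miR-133b of muscle, both listed endothelial miRNAs (miR-126-3p and miR-126-5p) and both listed brain miRNAs (miR-9 and miR-124) had no Ct. Their part in the values of the 4 members was not tested.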

How the data were processed

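RNA of serum exosomes was reverse transcribed and run by SYBR Green qPCR for 40 cycles on a ViiA7, per the labels' protocols. The authors deposited raw Ct per well and, per the file headers, log2-scale values normalized by subtracting a spike-in control's Ct. These equal the raw Ct minus the mean of wells P21 to P23, whose RNA the files do not name. The authors' deposited fold table is a ratio of vehicle over OCExoInhib. How the fluorescence threshold was set, and when a well was given no Ct, is not given in the sources used here. Between 108 and 117 named miRNAs had a Ct under 35 per sample, and a later value rests on few template molecules.

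Groups came from sample titles. Log2 levels were tested in R 4.3.3 by limma 3.58.1 (two-sided lmFit and eBayes), and wells with exact permutation tests (scipy 1.17.1). The limma fit was checked on simulated data with equal spread for all miRNAs and planted differences larger than those of the members. The fit was not checked at differences as small as theirs. Named miRNAs are the members, their relatives by seed, members of the blood-cell and marker lists that passed or had no Ct, and the 2 most like each member by Pearson's r. The list members that did not pass, miR-532-3p, miR-7b, miR-215 and miR-219 were named after their values were seen. The members and lists were chosen with earlier results of these data known. Alternatives covered normalization, Ct filter, late values, variance model, a replicate block and left-out samples. Added after seeing the data was a fit that left out miRNAs carrying a repeated Ct difference.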

Additional observations from a re-analysis of the deposited data

How the results depend on the processing

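No member passed the threshold in any setting except with sample medians, where miR-150 (2.96) and miR-144 (1.97) did. Signs turned for miR-144 with the global mean (0.62), raw Ct (0.17), quantile (0.75), sample medians (1.97) and median of ratios (0.048). They turned for miR-146a with the global mean (0.18), quantile (0.057) and sample medians (1.53), and for miR-223 with the global mean (0.48), raw Ct (0.029) and sample medians (1.83). Leaving out each sample gave −1.12 to −0.040 for miR-144, −2.35 to 0.0035 for miR-146a, −0.024 to 0.77 for miR-150 and −1.06 to −0.20 for miR-223. Over all settings limma's adjusted p ran from 0.0487 to 0.995 for miR-144, 0.113 to 1 for miR-146a and 0.0105 to 0.999 for miR-150. Of all tested miRNAs 27 passed, against 16 with quantile normalization, 68 with sample medians, 15 by the unmoderated test and 5 (1 lower, 4 higher) without the 23 miRNAs that carry a repeated Ct difference. Of the 27, 7 were higher, against 0 higher with a Ct under 35 in all samples and 3 with late values missing. All 5 that passed without those 23 miRNAs were also among the 27. That fit takes miRNAs out beforehand, so its lower count does not test a cause. The cause of the differences was not tested. Wells P21 and P22 alone differed by −1.004 (exact p 0.1) and −1.20 cycles (exact p 0.2), and P23 by 0.035 (exact p 0.9). Deviations from the group means correlated by 0.0587, 0.0177 and 0.117 between samples of the same number, too little to treat them as paired. With the replicate block 25 miRNAs passed and 0 members. miR-223 has no value by quantile normalization, with late values missing, with a Ct under 35 in all samples, in the variance settings, with the replicate block or in the fit without repeated differences, since all its values are late and these settings cover only tested miRNAs.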
